A study of Mus musculus with 6 samples.

Results

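The subject is a set of 4 carboxypeptidase genes, Cpe, Cpz, Cpd and Cpm, taken by symbol from the 24067 genes of the deposited gene table. All 4 belong to the M14 family of zinc metallocarboxypeptidases. They were measured by RNA-seq in embryonic submandibular glands of the mouse strain ICR, taken at embryonic day 13 (E13), in 3 libraries of glands treated with blebbistatin and in 3 libraries of control glands. Blebbistatin is a small molecule that stops non-muscle myosin II from pulling on actin filaments. The sources used here do not give the dose, the duration, the vehicle or how many glands went into a library, and all 6 samples share strain, tissue label and stage, with no transgene named. The series title speaks of epithelial buds, while the tissue label names the gland. The word glands is used here after that label, and the marker genes below show mostly epithelial RNA. The labels do not say whether replicates are separate litters or cultures, so the p-values given further on measure the spread between libraries, which may be technical.

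These 4 enzymes remove single residues, mostly the basic residues lysine and arginine, from the C-terminal end of peptides and proteins. In neuroendocrine cells such enzymes act after the prohormone convertases, which cut precursors behind pairs of basic residues and leave those residues exposed for trimming. The 4 differ in where they work. Carboxypeptidase E (Cpe) is the trimming enzyme of dense-core secretory granules, carboxypeptidase D (Cpd) is a membrane protein of the trans-Golgi network with a broader distribution, carboxypeptidase M (Cpm) is held on the cell surface by a lipid anchor, and carboxypeptidase Z (Cpz) is secreted, binds extracellular matrix and carries a cysteine-rich domain like that of the Frizzled receptors for Wnt proteins.

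Cpe and Cpz were put in the set because their levels differed in opposite directions between the groups in these same libraries. Their group differences are therefore given as a description without a test, and the same holds for Cpd and Cpm, which were taken as relatives of the pair. Values are FPKM, fragments scaled to transcript length and library total, as the authors deposited them. Each of the 4 genes has 1 annotated transcript, so the gene value and the transcript value are the same number and no isoform can be compared.

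On mm10, Cpe (RefSeq transcript NM_013494, 2094 nt) lies on the minus strand of chromosome 8 from 64592551 to 64693040 in 9 exons. Cpz (NM_153107, 2173 nt) lies on the minus strand of chromosome 5 from 35502218 to 35525626 in 11 exons. Cpd (NM_007754, 9152 nt) lies on the minus strand of chromosome 11 from 76777208 to 76847008 in 21 exons, and Cpm (NM_027468, 5195 nt) on the plus strand of chromosome 10 from 117629500 to 117687352 in 9 exons. The exons of all 4 genes are free of exons of other annotated genes, and the microRNA gene Mir684-1 lies within the span of Cpd. The transcripts differ most in their untranslated part, which is 666 nt in Cpe, 211 nt in Cpz, 5021 nt in Cpd and 3866 nt in Cpm.

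The RefSeq promoter table (GRCm38.p6) held 3 of the 4 genes, Cpz, Cpd and Cpm, each with the start site of the deposited annotation. The 250 bases before the start are printed for Cpz, the gene with lower values under treatment, and for Cpm, the gene of highest level in the set. Capitals mark matches to the GC box, the binding motif of Sp1, in either orientation. The Cpz sequence is the minus strand of chr5:35525627-35525876 and the Cpm sequence the plus strand of chr10:117629250-117629499.
Cpz: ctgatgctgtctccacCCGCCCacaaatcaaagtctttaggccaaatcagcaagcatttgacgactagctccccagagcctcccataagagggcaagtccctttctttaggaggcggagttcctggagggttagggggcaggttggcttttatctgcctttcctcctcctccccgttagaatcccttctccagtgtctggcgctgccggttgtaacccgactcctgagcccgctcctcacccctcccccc
Cpm: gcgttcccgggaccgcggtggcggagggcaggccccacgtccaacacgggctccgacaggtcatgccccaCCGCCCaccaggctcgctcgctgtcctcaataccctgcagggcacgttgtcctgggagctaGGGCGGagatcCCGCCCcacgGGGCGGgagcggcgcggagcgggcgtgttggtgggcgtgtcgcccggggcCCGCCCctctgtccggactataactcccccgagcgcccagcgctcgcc
The GC box (GGGCGG, both strands) occurred once in the Cpz window, from base -234 to base -229 before the start, and 5 times in the Cpm window, the nearest from base -48 to base -43. Of all 32851 promoter windows of this length, 32.7% hold it. GC content was 57.6% for Cpz and 74.4% for Cpm, against a median of 52.4% over all windows, and CG dinucleotides numbered 8 and 30 against a median of 6. The TATA box (TATAAA), the CCAAT box (CCAAT), the TEAD motif (GGAATG), the AP-1 motif (TGANTCA) and the CArG box of serum response factor were searched on both strands as well and had no match in either window, which says only that these letters are not there. They occur in 12.4%, 33.8%, 12.6%, 6.75% and 1.47% of all windows.

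Depth was estimated from the FPKM that 1 fragment gives in long genes with 1 transcript, and lay between 28100000 and 34200000 fragments per library. At that depth the lowest library held about 320 fragments of Cpz, 800 of Cpe, 9630 of Cpd and 31470 of Cpm. Counting error alone is then at most about 5.55% of the value for Cpz, 3.53% for Cpe, 1.02% for Cpd and 0.564% for Cpm. The labelled tissue was checked on marker genes. The summed level of 7 epithelial markers was between 1243 and 1601 FPKM in treated libraries and between 1318 and 1652 FPKM in controls. The sum of 10 mesenchymal markers was 4.41 to 9.44 FPKM in treated libraries and 5.75 to 22.0 FPKM in controls. In every library it was far below the epithelial sum, so the RNA was mostly epithelial. The levels given here are therefore not those of a whole gland with its mesenchyme. Of the 10 mesenchymal markers, 6 had a mean below 1 FPKM. Among these, Pdgfra was lower in every treated library (0.418 to 0.558 FPKM) than in any control (0.626 to 1.03 FPKM). The groups overlapped for the other markers of this list. Neuronal, Schwann cell, endothelial and leukocyte markers summed to no more than 3.14, 12.1, 0.961 and 2.58 FPKM in any library. The endothelial sum was 0.784 to 0.961 FPKM in treated libraries and 0.527 to 0.645 FPKM in controls, where Pecam1 and Tek were higher in every treated library than in any control and Cdh5 was listed at 0 in all treated libraries. In the Schwann cell list S100b was lower in every treated library than in any control, and Foxd3 was listed at 0 in all controls. The part of these cells in the results was not tested. Mbp, at 9.11 ± 1.13 FPKM in treated libraries and 8.72 ± 1.33 FPKM in controls (SD, n = 3 each), made up most of the Schwann cell sum, and the other markers of that list were below 1 FPKM on average.

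Cpe, the granule enzyme, had a mean 2.52 times as high in treated glands as in control glands. It stood at 37.2, 42.5 and 24.8 FPKM in blebbistatin replicates 1 to 3, against 14.7, 13.6 and 13.2 FPKM in control replicates 1 to 3. The groups did not overlap, and the lowest treated library was 1.69 times the highest control. The means were 34.8 ± 9.08 FPKM in treated libraries and 13.8 ± 0.79 FPKM in controls (SD, n = 3 each). The log2 fold change on the log2(FPKM + 1) scale was 1.24 ± 0.18 (SE), a scale that understates the change of low genes. Of the 11540 genes with a mean of at least 1 FPKM, 15 had a log2 fold change as high as this, Cpe included. The treated libraries scattered far more than the controls, with a coefficient of variation of 26.1% against 5.68%, and blebbistatin replicate 3 was the low one. Without that library the log2 fold change was 1.46, and without blebbistatin replicate 2 it was 1.08.

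Cpz, the matrix-bound enzyme with the Frizzled-like domain, was lower in treated glands. It stood at 5.21, 5.98 and 5.97 FPKM in blebbistatin replicates 1 to 3, against 12.3, 9.97 and 10.0 FPKM in control replicates 1 to 3. Again the groups did not overlap, and the lowest control was 1.67 times the highest treated library. The means were 5.72 ± 0.44 FPKM in treated libraries and 10.8 ± 1.33 FPKM in controls (SD, n = 3 each), so that the control mean was 1.88 times the treated mean. The log2 fold change was -0.80 ± 0.11 (SE), and 80 of the 11540 genes had one as low or lower, Cpz included. In bulk tissue, fewer cells of a type and less RNA per cell cannot be told apart. Control replicate 1, which had the highest Cpz value, also had the highest sum of mesenchymal markers, 22.0 FPKM. In control replicates 2 and 3 that sum was 5.87 and 5.75 FPKM, against 4.41 to 9.44 FPKM in treated libraries. Cpz was 9.97 and 10.0 FPKM in these controls. Pdgfra, a marker of that list, was 0.717 and 0.626 FPKM in them and at most 0.558 FPKM in treated libraries. The part of mesenchymal cells in the Cpz values was not tested. Without control replicate 1 the log2 fold change of Cpz was -0.71.

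Cpd, the trans-Golgi enzyme, had overlapping groups. It stood at 36.7, 45.3 and 47.8 FPKM in blebbistatin replicates 1 to 3, against 37.1, 55.7 and 49.3 FPKM in control replicates 1 to 3. Replicate 1 was the lowest library in both groups. The means were 43.2 ± 5.85 FPKM in treated libraries and 47.4 ± 9.46 FPKM in controls (SD, n = 3 each), with a log2 fold change of -0.12 ± 0.16 (SE). Its sign rested on control replicate 2, without which the log2 fold change was 0.0069. Of the tested genes, 7463 had a change of this size or smaller in either direction.

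Cpm, the cell-surface enzyme, was the most abundant of the set. It stood at 252, 227 and 220 FPKM in blebbistatin replicates 1 to 3, against 234, 227 and 208 FPKM in control replicates 1 to 3. The groups overlapped, with means of 233 ± 16.5 FPKM in treated libraries and 223 ± 13.5 FPKM in controls (SD, n = 3 each). The log2 fold change was 0.06 ± 0.10 (SE). By mean level Cpm ranked 274 among the 11540 tested genes, Cpd 1697, Cpe 3376 and Cpz 7293.

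**Figure D1:**
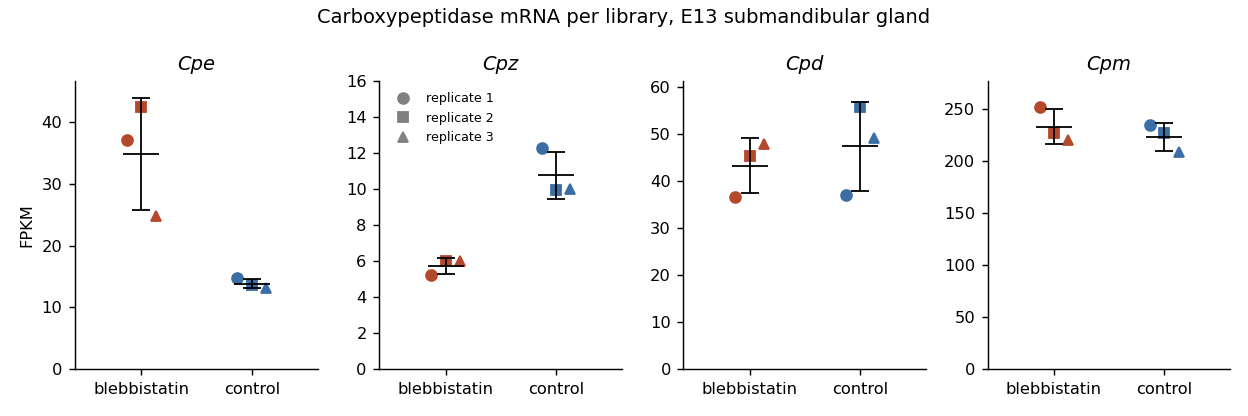
FPKM of Cpe, Cpz, Cpd and Cpm in each of the 3 blebbistatin libraries (left) and 3 control libraries (right), with the mean and SD as black bars and each vertical axis starting at 0. Cpe lies above and Cpz below all controls in every treated library, while Cpd and Cpm overlap between the groups.

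All 4 members passed the filter of 1 FPKM. The groups did not overlap for 1 member in the higher direction and 1 in the lower, where 7.48% and 6.80% of tested genes did so and 14.3% in either direction. In the fit over all genes (limma, Benjamini-Hochberg), 0 of the 4 members reached an adjusted p of 0.05, as 0.0780% of tested genes did, and since the set was chosen on this contrast nothing is read from either count. Among all tested genes 1080 (9.36%) had an unadjusted p under 0.05.

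**Figure D2:**
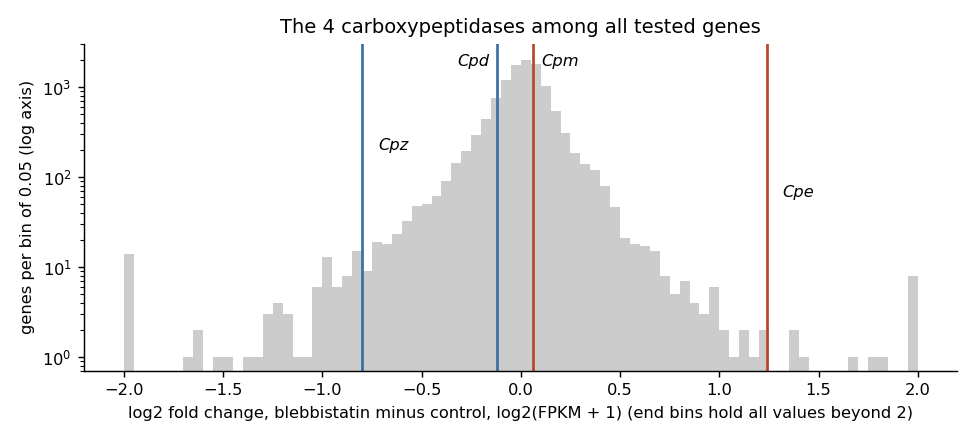
Number of tested genes (log axis) per bin of log2 fold change, blebbistatin minus control on the log2(FPKM + 1) scale, with vertical lines at the 4 carboxypeptidases and all values beyond 2 in either direction in the end bins. The 5th and 95th percentiles of all 11540 genes are -0.30 and 0.28, so Cpz (-0.80) and Cpe (1.24) lie in the tails on either side, and Cpd (-0.12) and Cpm (0.06) near the middle.

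FPKM is scaled to transcript length, so levels can be set beside each other within a library. In every library Cpm was highest and Cpz lowest. In treated glands Cpe (24.8 to 42.5 FPKM) and Cpd (36.7 to 47.8 FPKM) overlapped, whereas in controls Cpe (13.2 to 14.7 FPKM) lay below Cpd (37.1 to 55.7 FPKM) and only slightly above Cpz (9.97 to 12.3 FPKM). The ratio of Cpe to Cpz was 7.14, 7.10 and 4.15 in blebbistatin replicates 1 to 3, against 1.20, 1.37 and 1.32 in control replicates 1 to 3. The ratio of Cpe to Cpd was 1.02, 0.939 and 0.518 in treated libraries, against 0.396, 0.244 and 0.268 in controls. These ratios restate the differences of Cpe and Cpz and are no further evidence of them.

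The summed level of the 4 genes was 317 ± 16.3 FPKM in treated libraries and 295 ± 13.1 FPKM in controls (SD, n = 3 each), with ranges of 299 to 331 and 281 to 306 FPKM that overlap. Cpm made up 73.5 ± 2.65% of that sum in treated libraries and 75.6 ± 2.53% in controls. The share of Cpe was 10.9 ± 2.49% in treated libraries and 4.69 ± 0.24% in controls, and that of Cpz was 1.81 ± 0.22% in treated libraries and 3.65 ± 0.44% in controls. The surface enzyme thus had the largest share of the 4 in every library.

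**Figure D3:**
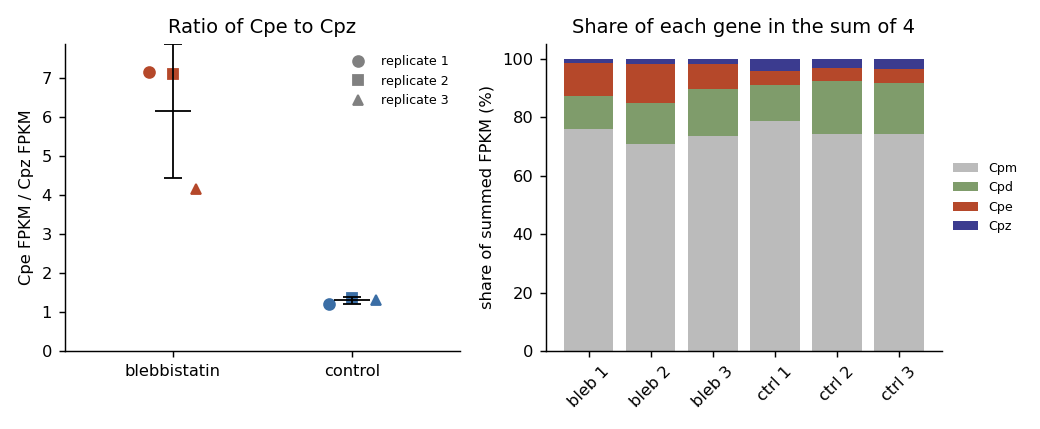
Left, the ratio of Cpe FPKM to Cpz FPKM per library with mean and SD for blebbistatin and control. Right, the share of each gene in the summed FPKM of the 4 in each library (bleb, blebbistatin; ctrl, control), where Cpm takes 70.8% to 78.5% in all 6 libraries and Cpe takes 8.30% to 13.2% in treated libraries and 4.45% to 4.93% in controls.

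The other genes described from here on come from 7 lists around these enzymes, chosen by function and with earlier results of these data known. The lists hold 123 genes, of which 51 were tested. None passed an adjusted p of 0.05 (limma, Benjamini-Hochberg over all 11540 genes), the smallest adjusted p was 0.125, and 13 of 51 had an unadjusted p under 0.05, against 9.36% of all tested genes. Their median log2 fold change was -0.02, against 0.01 for all tested genes.

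Of 18 further M14 carboxypeptidases, 6 were tested, 2 with higher and 4 with lower means, and 0 passed (median log2 fold change -0.12). The other 12 were at or below a mean of 0.307 FPKM, among them the digestive enzymes Cpa1 and Cpb1 and the plasma enzyme subunit Cpn1, and 3 of the 12 were listed at 0 in all libraries. The closest relatives of Cpe and Cpz that were tested are Cpxm1, Cpxm2 and Aebp1, secreted proteins with a carboxypeptidase-like domain. Cpxm1 was at 6.57, 7.16 and 6.32 FPKM in blebbistatin replicates 1 to 3, against 11.2, 6.93 and 8.23 FPKM in control replicates 1 to 3, so that the groups overlapped (log2 fold change -0.33 ± 0.15 (SE), limma adjusted p = 0.578). Its highest value was in control replicate 1, the library with the highest mesenchymal sum, whose part in this value was not tested. Aebp1 (-0.22 ± 0.15) and Cpxm2 (-0.25 ± 0.15) also had lower means without passing. The cytosolic enzymes that trim glutamate from tubulin tails were led by Agbl5, at 12.9 ± 0.92 FPKM in treated libraries and 13.2 ± 1.32 FPKM in controls (SD, n = 3 each), and Agbl3 had a log2 fold change of 0.16 ± 0.11 (SE) without passing. Carboxypeptidases of other families gave 4 tested genes of 7 and 0 calls (median -0.04). They include the lysosomal serine carboxypeptidases Ctsa, at 40.0 ± 4.57 FPKM in treated libraries and 41.5 ± 4.67 FPKM in controls, and Prcp, at 5.44 ± 0.30 FPKM in treated libraries and 5.54 ± 0.32 FPKM in controls. Scpep1 was at 35.6 ± 1.26 FPKM in treated libraries and 33.0 ± 1.01 FPKM in controls, with no overlap (limma adjusted p = 0.850). Cpq was at 2.65 ± 0.21 FPKM in treated libraries and 2.96 ± 0.32 FPKM in controls.

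The granule convertases and granins were near 0 in both groups, whereas the later processing enzyme Pam, described in the next paragraph, was not. The convertases Pcsk1 and Pcsk2 did not exceed 0.0147 and 0.0290 FPKM in any library. The granins Chga, Chgb and Scg2 did not exceed 0.139, 0.144 and 0.0437 FPKM, and Scg3 and Vgf did not exceed 0.0835 and 0.0990 FPKM. Scg5, the chaperone of Pcsk2, lay below the filter of 1 FPKM, at 0.857 ± 0.0701 FPKM in treated libraries and 0.534 ± 0.14 FPKM in controls (SD, n = 3 each), with no overlap between the groups and no test. Of 23 granins and peptide precursors 4 were tested and 0 passed (median log2 fold change -0.22). Below the filter, the peptide precursor Cck was at 0.334, 0.0673 and 0.274 FPKM in blebbistatin replicates 1 to 3. It was at 1.64, 0.796 and 1.40 FPKM in control replicates 1 to 3, with no overlap and no test. The groups overlapped for the other untested genes of this list. Pomc, the precursor of corticotropin, was at 1.02, 0.739 and 0.796 FPKM in blebbistatin replicates 1 to 3, against 1.58, 1.18 and 1.38 FPKM in control replicates 1 to 3 (limma adjusted p = 0.350). Penk, the enkephalin precursor, was at 1.75 ± 0.84 FPKM in treated libraries and 1.37 ± 0.63 FPKM in controls, Adm2, the precursor of intermedin, at 3.41 ± 1.96 FPKM in treated libraries and 4.39 ± 1.43 FPKM in controls, and Edn1, the endothelin precursor, at 2.78 ± 0.36 FPKM in treated libraries and 3.02 ± 0.37 FPKM in controls (SD, n = 3 each).

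Among the convertases that are not confined to such granules, levels ranged widely, with Mbtps1, Pcsk6 and Furin at the upper end and Pcsk4 and Pcsk5 just above 1 FPKM. Of 18 convertases and later processing enzymes 13 were tested, 6 with higher and 7 with lower means, 0 passed and 0 had an unadjusted p under 0.05 (median log2 fold change -0.01). Mbtps1, the site-1 protease, was at 110 ± 5.51 FPKM in treated libraries and 118 ± 11.8 FPKM in controls, and the convertase Furin at 47.4 ± 4.01 FPKM in treated libraries and 53.1 ± 4.29 FPKM in controls (SD, n = 3 each). Pcsk5, another convertase, was at 1.40 ± 0.02 FPKM in treated libraries and 1.15 ± 0.13 FPKM in controls. Its groups did not overlap (limma adjusted p = 0.812). Pam, which amidates peptides after carboxypeptidase trimming, was at 13.3, 14.7 and 15.6 FPKM in blebbistatin replicates 1 to 3, against 11.6, 12.6 and 13.6 FPKM in control replicates 1 to 3. Its groups overlapped (log2 fold change 0.19 ± 0.10 (SE), adjusted p = 0.644). The cysteine protease Ctsl had a log2 fold change of 0.25 ± 0.14 (SE) without passing.

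Cpz shares its cysteine-rich domain with the Frizzled receptors, the secreted Frizzled-related proteins and the Ror receptors. Of 21 such genes 14 were tested, 5 with higher and 9 with lower means, and 0 passed. Their median log2 fold change was -0.07, and 7 of 14 had an unadjusted p under 0.05, against 9.36% of all tested genes. The groups did not overlap for 5 of the 14 in the lower direction and for 2 in the higher, where 6.80% and 7.48% of all tested genes did so. As the list was chosen with earlier results of these data known, nothing is read from these counts. Ror2, a receptor for Wnt5a, was at 2.65, 5.14 and 3.70 FPKM in blebbistatin replicates 1 to 3, against 7.40, 8.16 and 6.94 FPKM in control replicates 1 to 3. Every treated library was below every control (log2 fold change -0.84 ± 0.18 (SE), limma adjusted p = 0.125). Its relative Ror1 was at 2.53, 4.06 and 3.62 FPKM in treated libraries, against 5.20, 8.15 and 5.64 FPKM in controls (-0.73 ± 0.18 (SE), adjusted p = 0.190). The receptor Fzd9 was at 13.2, 23.7 and 21.4 FPKM in treated libraries, against 36.1, 33.2 and 32.1 FPKM in controls (-0.80 ± 0.19 (SE), adjusted p = 0.170). For these 3 receptors blebbistatin replicate 1 was the lowest library, as it was for Cpz. Sfrp1, a secreted Wnt antagonist and the most abundant gene of the list, was at 307 ± 45.9 FPKM in treated libraries and 406 ± 7.98 FPKM in controls (adjusted p = 0.286). Fzd7 had values in the other direction, 82.0 ± 5.34 FPKM in treated libraries and 70.5 ± 2.94 FPKM in controls (SD, n = 3 each, adjusted p = 0.503).

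Of 19 Wnt ligands 5 were tested, 4 with higher and 1 with lower means, and 0 passed. Their median log2 fold change was 0.62, against 0.01 for all tested genes. The summed level of the ligands overlapped, at 58.5 to 93.7 FPKM in treated libraries and 41.8 to 69.3 FPKM in controls. As this list too was chosen with earlier results of these data known, nothing is read from its counts or median. Wnt6 was at 16.8, 18.9 and 22.8 FPKM in blebbistatin replicates 1 to 3, against 13.1, 9.14 and 13.9 FPKM in control replicates 1 to 3. The groups did not overlap (log2 fold change 0.66 ± 0.17 (SE), limma adjusted p = 0.190). Wnt4 was at 12.2, 5.95 and 6.32 FPKM in treated libraries, against 6.01, 3.15 and 4.54 FPKM in controls, with an overlap through blebbistatin replicate 2 and control replicate 1 (adjusted p = 0.450). Wnt7b had a log2 fold change of 0.62 ± 0.24 (SE) with overlapping groups. Wnt11 had one of -0.55 ± 0.20 (SE) with no overlap, and neither passed the threshold. Wnt5b, the most abundant ligand, was at 36.1 ± 17.6 FPKM in treated libraries and 31.1 ± 9.81 FPKM in controls.

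**Figure D4:**
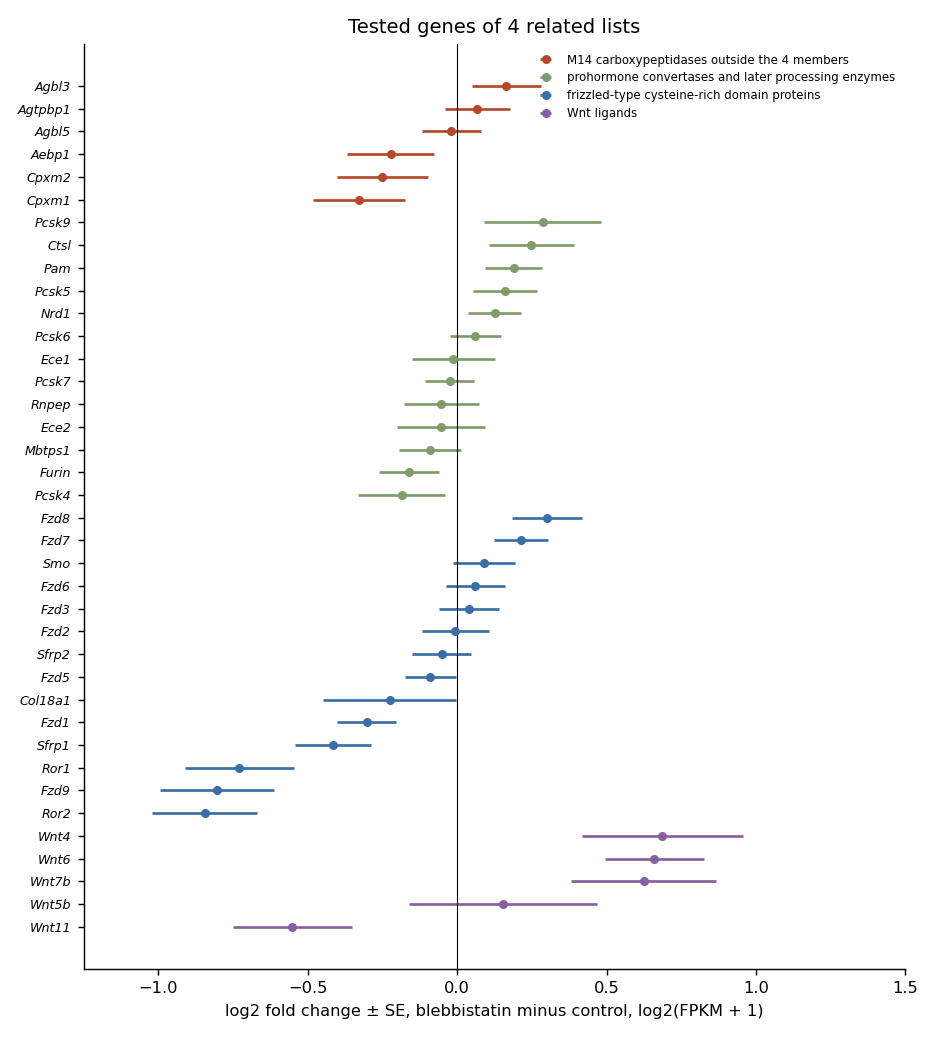
Log2 fold change with SE, blebbistatin minus control on the log2(FPKM + 1) scale, of the tested genes in 4 of the lists. The processing enzymes lie between -0.19 and 0.29, whereas Ror2, Fzd9 and Ror1 lie between -0.84 and -0.73 and Wnt4, Wnt6 and Wnt7b between 0.62 and 0.69, and none of the genes drawn passed an adjusted p of 0.05.

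Surface and Golgi carboxypeptidases can cut kinins and anaphylatoxins and release arginine. Of 17 genes for these peptides, their receptors and arginine metabolism, 5 were tested, 2 with higher and 3 with lower means, and 0 passed (median log2 fold change -0.16). The arginase Arg1 was at 11.6 ± 5.48 FPKM in treated libraries and 21.3 ± 9.01 FPKM in controls (SD, n = 3 each, limma adjusted p = 0.613). The arginase Arg2 was at 3.72, 3.74 and 3.82 FPKM in blebbistatin replicates 1 to 3, against 4.43, 4.41 and 4.52 FPKM in control replicates 1 to 3, a small difference with no overlap (log2 fold change -0.20 ± 0.08 (SE), adjusted p = 0.514). The membrane peptidase Mme (0.34 ± 0.20) and the urea cycle enzyme Asl (-0.16 ± 0.17) did not pass. Both kininogen genes lay below the filter and were not tested. Kng2 was at 1.58, 0.714 and 0.385 FPKM in blebbistatin replicates 1 to 3, against 0.164, 0.0594 and 0 FPKM in control replicates 1 to 3. Kng1 did not exceed 0.108 FPKM in any library. Each was higher in every treated library than in any control, and the groups overlapped for the other untested genes of this list.

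The genes whose pattern over the 6 libraries was most like each member were sought among the genes with a mean of at least 5 FPKM. Likeness was measured as the root mean square difference of log2(FPKM + 1) values centred on their own mean, so that a smaller value means a closer pattern. It describes the libraries and, for Cpe and Cpz, includes the group difference that chose them. A feature shared with a member, such as its lowest library, is favoured by the search and is no further finding. For Cpe the nearest gene was Cyr61, a matricellular protein, with a difference of 0.13 where the pattern of Cpe itself had a root mean square of 0.66. Cyr61 was at 75.1, 69.3 and 47.4 FPKM in blebbistatin replicates 1 to 3, against 29.5, 29.7 and 29.5 FPKM in control replicates 1 to 3. Next came Lurap1l (0.21), 1810010H24Rik (0.24) and the adhesion molecule Icam1 (0.25). In all 4, as in Cpe, blebbistatin replicate 3 was the lowest of the treated libraries.

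For Cpz the nearest gene was the calcium-binding protein S100a1, with a difference of 0.07 where the pattern of Cpz had a root mean square of 0.42. S100a1 was at 2.99, 4.14 and 3.88 FPKM in blebbistatin replicates 1 to 3, against 7.80, 6.12 and 6.55 FPKM in control replicates 1 to 3. Next came Sgsm3 (0.09), the ion transport regulator Fxyd3 (0.09) and the matrix Gla protein gene Mgp (0.11). Mgp, whose product inhibits calcification, was at 59.4 ± 8.97 FPKM in treated libraries and 103.6 ± 6.31 FPKM in controls (SD, n = 3 each). For Cpd the nearest was the Golgi mannosidase Man2a1 (0.03), which shared the low value of replicate 1 in both groups. For Cpm they were Prcc (0.02) and Cdv3 (0.02).

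**Figure D5:**
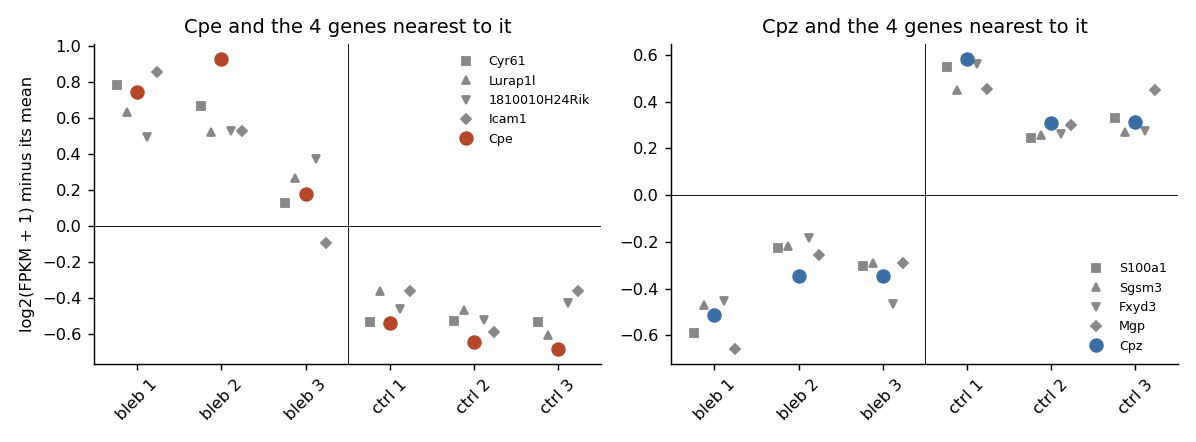
Log2(FPKM + 1) of Cpe (left) and Cpz (right) minus its mean over the 6 libraries, with the same for the 4 genes of smallest root mean square difference, per library (bleb, blebbistatin; ctrl, control). Cpe and its 4 genes are lowest among treated libraries in replicate 3, and Cpz and its 4 genes are above their means in every control. Both features are favoured by the way the genes were chosen.

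The genes next to the members on the chromosome were looked up by position. The nearest gene to the right of Cpe, at 25.1 kb, is Sc4mol, a sterol methyl oxidase gene, at 38.4, 50.3 and 47.5 FPKM in blebbistatin replicates 1 to 3, against 33.7, 34.0 and 31.7 FPKM in control replicates 1 to 3. The groups did not overlap, and the gene did not pass (log2 fold change 0.44 ± 0.11 (SE), limma adjusted p = 0.198). Blebbistatin replicate 1, not replicate 3, was its lowest treated library. On the other side of Cpe, Mir710 was listed at 0 in all libraries. Beside Cpz, Trmt44 at 30.6 kb was at 3.67 ± 0.25 FPKM in treated libraries and 3.89 ± 0.40 FPKM in controls (SD, n = 3 each, adjusted p = 0.986), and Hmx1 at 109 kb was near 0. The neighbours of Cpd, Gosr1 and Tmigd1, and those of Cpm, Cpsf6 and Mdm2, did not pass either, with adjusted p of 0.999, 0.728, 0.997 and 0.991 (limma). Mdm2 ends 1.52 kb from Cpm and was at 18.5 ± 1.91 FPKM in treated libraries and 17.7 ± 1.73 FPKM in controls.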

How the data were processed

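TopHat2 2.0.13, Bowtie2 2.2.3 and the mm10 build are named in the submitters' processing notes, with Cufflinks 2.2.1. Per the file headers, the deposited values are FPKM for genes and transcripts, and the RefSeq annotation deposited beside them gave exon positions. The sources used here do not say if libraries were stranded. Columns were matched to samples by name, with BB read as blebbistatin and unnumbered columns as replicate 1. Genes with a mean of at least 1 FPKM over the 6 libraries were tested as log2(FPKM + 1) in limma 3.58.1 (R 4.3.3) with a mean-variance trend, treatment as the only term and an adjusted p of 0.05, after a check on simulated data. Depth was estimated from genes with 1 transcript longer than 4000 nt, ignoring fragment length. SE is the moderated standard error. The members and lists were chosen with earlier results of these data known. Genes named from a list are those past the threshold, up to 4 of smallest unadjusted p and up to 2 of highest mean. Pcsk4, Pcsk6 and the genes below 1 FPKM that are named were chosen after their values were seen. For likeness they are the 4 nearest genes to Cpe and Cpz and the 2 nearest to Cpd and Cpm, of which 1 is not reported here. Neighbouring genes were named by position. Alternatives were another pseudocount, other filters and scalings, array weights, a replicate block and leaving out each library.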

Additional observations from a re-analysis of the deposited data

How the results depend on the processing

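The direction of Cpe and Cpz was the same under all 13 alternatives, but most of these could not change it. As the groups did not overlap, leaving out 1 library could not reverse it. The filters and the replicate block left the log2 fold change as it was. Both genes were chosen on this contrast, so no support is read from the constant direction. The log2 fold changes ran from 1.08 to 1.46 for Cpe and from -0.89 to -0.71 for Cpz. Those of Cpm ran from 0.0047 to 0.10 and those of Cpd from -0.28 to 0.0069. The number of genes past the threshold was 9, and became 57 with array weights, 27 when a mean of 5 FPKM was required, 14 on quantile-normalized values, 12 with a pseudocount of 0.1, 2 on values rescaled by median of ratios and 1 when every detected gene was kept. Leaving out 1 library gave 1 to 13. The lowest count, 1, came from omitting control replicate 1, omitting control replicate 2 or blebbistatin replicate 1 gave 2, and omitting blebbistatin replicate 2 gave 4. The cause was not tested. Among the 4 members the count of 0 became 1 with a pseudocount of 0.1 (Cpz), where 12 of 11540 genes passed. It became 2 (Cpe and Cpz) when a mean of 5 FPKM was required, where 27 of 8793 genes passed. With array weights it was also 2 (Cpe and Cpz), where 57 of 11540 genes passed. Without blebbistatin replicate 3 it was 1 (Cpe), where 13 of 11540 genes passed. The members were chosen on this contrast, so nothing is read from their counts under any alternative. Of the 1648 genes whose groups did not overlap, the number was 2307 to 3184 when 1 library was left out, since fewer values have to be separated. With the replicate number as a replicate block, 144 of 11540 genes passed, 3 of the listed genes passed (Arg1, Ror1 and Wnt7b) and 2 members passed (Cpe and Cpz). Under all other alternatives 0 of the listed genes passed. The labels do not say that numbers pair the libraries, and deviations from the group means correlated across genes by 0.182, 0.0941 and 0.253 for replicates 1 to 3, each library correlating best with its own number. Counting error, at most 5.55% of the value in any member, was below the coefficient of variation of each group in the same member.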
